A study of Mus musculus with 24 samples.

Results

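Immediate early transcription factors were followed across 24 mouse expression arrays as 10 genes: Fos, Fosb, Jun, Junb, Atf3, Egr1, Egr2, Egr3, Ier2 and Ier3. Every probe set that the platform annotation assigns to 1 of these symbols was taken, whatever its signal, which gave 13 of the 45037 probe sets tested and 10 of the 18193 genes with a symbol. Jun, Egr2 and Egr3 have 2 probe sets each, and the other members have 1. The arrays form 8 groups of 3. P19 cells, a mouse embryonal carcinoma line, carried a MyoD lentivirus in batch 1 or a NeuroD2 lentivirus in batch 3, and each of these batches had untransduced P19 controls. MEFs, fibroblasts from mouse embryos, carried MyoD in batch 1 or were labelled NeuroD2 in batch 2, and untransduced MEFs were run in both of those batches. All MEF groups, the controls included, are stated to come from Myod-/-/Myf5-/- animals and to be maintained in DMEM with 10% FBS. Infection was in 8 µg/ml polybrene, with fresh medium after 24 hours. P19 cells were harvested at 72 hours. MEFs with MyoD were moved after 48 hours to a medium with 1% horse serum, 10 µg/ml insulin and transferrin, and were collected 36 to 40 hours after that change. For the MEFs labelled NeuroD2 and the MEF controls, the sources used here do not settle the medium at harvest, and state a harvest time only as counted from the move to low serum. Whether the members' differences in the MEFs labelled NeuroD2 go with a difference in serum was not tested. Because controls carried no virus, virus and factor cannot be told apart in any group, and in MEFs with MyoD the low-serum medium cannot be told apart from either.

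Immediate early genes are the first genes a cell transcribes after serum, growth factors, depolarisation or stress, and they need no new protein synthesis for it. The Fos and Jun proteins pair through leucine zippers into AP-1, which binds the site TGANTCA. Atf3 is a related zipper protein of the stress response, and the Egr proteins are zinc-finger factors that bind GC-rich sites. In myoblasts, Jun and Fos are known to oppose MyoD, while in neurons Fos and Egr1 are the classic markers of recent activity. MyoD and NeuroD2 are basic helix-loop-helix factors that bind the E-box CANNTG, MyoD in muscle cells and NeuroD2 in neurons.

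The 250 bases before the transcription start are shown for 5 of the members that changed in at least 1 comparison, from the RefSeq promoter table (GRCm38.p6), because the 2 transduced factors and AP-1 itself read such sequences. They are Fos (chr12:85473640-85473889, plus strand), Jun (chr4:95052223-95052472, minus strand), Junb (chr8:84978749-84978998, minus strand), Atf3 (chr1:191183334-191183583, minus strand) and Ier3 (chr17:35821463-35821712, plus strand). Each runs 5′ to 3′ along its gene. Capitals mark a match on either strand to the E-box CANNTG, the core TGACGT of the CRE, the AP-1 site TGANTCA or the CRE-like site TGANNTCA.
Fos: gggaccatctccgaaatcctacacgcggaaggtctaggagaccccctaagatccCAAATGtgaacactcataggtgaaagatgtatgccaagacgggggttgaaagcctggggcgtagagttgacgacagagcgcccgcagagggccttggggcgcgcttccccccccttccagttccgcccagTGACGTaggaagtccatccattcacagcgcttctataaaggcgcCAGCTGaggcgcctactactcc
Jun: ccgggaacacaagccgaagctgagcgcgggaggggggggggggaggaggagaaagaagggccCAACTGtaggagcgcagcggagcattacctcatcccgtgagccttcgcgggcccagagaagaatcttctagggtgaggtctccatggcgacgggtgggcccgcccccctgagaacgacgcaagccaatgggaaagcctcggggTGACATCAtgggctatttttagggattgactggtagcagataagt
Junb: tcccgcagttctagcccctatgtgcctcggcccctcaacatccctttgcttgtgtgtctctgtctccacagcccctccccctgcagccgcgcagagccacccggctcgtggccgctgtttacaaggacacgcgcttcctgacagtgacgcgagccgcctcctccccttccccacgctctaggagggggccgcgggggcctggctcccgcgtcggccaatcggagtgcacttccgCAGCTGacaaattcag
Atf3: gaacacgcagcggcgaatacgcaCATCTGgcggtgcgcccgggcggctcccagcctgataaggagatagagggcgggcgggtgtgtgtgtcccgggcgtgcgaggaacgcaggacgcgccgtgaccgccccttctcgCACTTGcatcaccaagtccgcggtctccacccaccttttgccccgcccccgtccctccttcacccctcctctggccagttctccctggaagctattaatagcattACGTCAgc
Ier3: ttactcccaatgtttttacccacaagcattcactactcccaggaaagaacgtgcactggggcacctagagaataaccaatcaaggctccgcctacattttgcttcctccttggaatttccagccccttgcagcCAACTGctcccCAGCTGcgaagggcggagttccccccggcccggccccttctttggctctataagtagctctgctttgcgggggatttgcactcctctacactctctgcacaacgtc
The Fos window holds 2 E-boxes, CAGCTG close to the start and CAAATG far up, and a TGACGT core between them. The Jun window has the CRE-like TGACATCA and 1 E-box. Junb has a single CAGCTG, Ier3 has CAGCTG beside CAACTG, and Atf3 has 2 E-boxes and an ACGTCA, which is TGACGT read on the other strand. No match overlaps another in these windows. Of 32851 promoter windows of the same length, 66.2% hold CANNTG, 4271 windows, 13.001%, hold CAGCTG, 6.47% hold TGACGT, 11.9% hold TGANNTCA and 6.75% hold TGANTCA. An E-box is therefore common in windows of this length, and these matches describe the letters only. No TGANTCA stands in the 5 windows shown. Fosb and Egr2 also have entries, and Egr1, Egr3 and Ier2 are named only.

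Values are log2 signals as deposited, and a difference of 1 is a 2-fold change. A probe set was called higher or lower at a limma adjusted p under 0.05 over all 45037 probe sets. Labels do not say whether the 3 replicates were separate cultures, so p-values measure a spread that may be technical. In 23 arrays the quartiles lay between 4.47 and 4.58 and between 8.23 and 8.39. P19 control replicate 2 of batch 1 stood apart, at 4.79 and 7.62, and results are also given without this outlying control. Myod1 was higher on 1 of its 2 probe sets, by 3.94 in P19 cells and 5.55 in MEFs with MyoD (adjusted p = 4.14e-14 and 3.78e-18). Its other probe set was not called with MyoD, at 0.10 in P19 cells and 0.06 in MEFs (adjusted p = 0.573 and 0.893). Neurod2 was higher by 1.70 on 1 of 3 probe sets in P19 cells with NeuroD2 (adjusted p = 2.17e-06). Differences of -0.06, 0.21 and -0.12 were measured on these probe sets in the MEFs labelled NeuroD2 (adjusted p = 0.952, 0.710 and 0.814). No rise of Neurod2 RNA was thus measured there, and that group is called by its label throughout. All 7 marker genes of pluripotent cells exceeded the table median of 5.81 in every P19 group, and 1 of 7 did in every MEF group. All 7 fibroblast markers exceeded it in every MEF group, with array means of 11.70 to 13.75. In P19 groups 3 to 7 of them did, with array means of 6.15 to 7.50, so the level separates the cells and the count does not. Myf5, which the MEFs are stated to lack, averaged 10.07 and 9.44 in the MEF controls of batches 1 and 2, and 4.42 and 4.02 in the P19 controls of batches 1 and 3. Whether its probe set lies outside the deleted part is not given in the labels, so it checks nothing about the genotype.

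The MEFs labelled NeuroD2 had the most changes among the 4 comparisons with controls. In them Fos, Junb, Egr1 and Ier2 rose and Jun fell, so 6 of 13 member probe sets were called, where 9.65% of all probe sets were. In MEFs with MyoD, Ier3 and Junb fell while Egr3 and Atf3 rose, giving 4 of 13 called against a background of 19.7%, a share not far from that of all probe sets. In P19 cells with NeuroD2, Jun rose and Fos and Egr2 fell, which made 4 of 13 probe sets against 6.12% of all. In P19 cells with MyoD, Fos rose, and the 1 call of 13 stands beside a background of 2.08%. The median member difference was 0.23 in the MEFs labelled NeuroD2, -0.06 in MEFs with MyoD, -0.06 in P19 cells with NeuroD2 and -0.10 in P19 cells with MyoD. The medians over all probe sets were -0.01, 0.00, -0.03 and 0.01 in the same comparisons. With that 1 control left out the counts were 7, 4, 6 and 2 of 13, against backgrounds of 20.7%, 32.1%, 16.1% and 2.51%.

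Markers of other cell types moved with these comparisons, and their part in the members' changes was not tested. In MEFs with MyoD the mean of 7 skeletal muscle markers was 13.04 to 13.16, against 4.83 to 4.998 in controls, and the mean of 7 fibroblast markers was 11.70 to 11.85, against 13.50 to 13.60. The neuron mean in that comparison was 5.13 to 5.29, against 4.86 to 4.94, with 3 of 7 markers above the table median against 1 of 7. In P19 cells with MyoD the muscle mean was 8.22 to 8.26, against 5.84 to 5.92. The fibroblast mean there was 6.15 to 6.32, against 6.78 to 7.16, with 3 of 7 markers above the table median against 6 of 7. Endothelial markers averaged 5.25 to 5.40, against 5.56 to 5.67, and macrophage and blood markers 5.40 to 5.46, against 5.47 to 6.04. The controls of this P19 comparison include the outlying control, and the marker ranges were not taken without it. In the P19 controls of batch 3 the macrophage and blood mean was 5.34 to 5.41. In P19 cells with NeuroD2 the mean of 7 neuron markers was 10.06 to 10.80, against 6.88 to 7.21. That of 4 measured glial markers was 5.82 to 6.03, against 5.09 to 5.36. Of these glial markers only Olig2 rose, to 7.24 against 3.77. Gfap, Sox10 and Aqp4 averaged lower with NeuroD2 (5.25, 6.55 and 4.79, against 5.54, 6.77 and 4.86). In the MEFs labelled NeuroD2 the neuron mean was 5.20 to 5.29, against 4.78 to 4.93, with 2 of 7 markers above the table median against 1 of 7. The largest rise among these was that of Tubb3 (8.19, against 6.37). Stmn2 and Neurod1 averaged lower (5.60 and 4.19, against 5.63 and 4.36). Muscle markers in that group averaged 5.09 to 5.11, against 4.79 to 5.01, with 0 of 7 above the median in either group. Mymk had the largest rise of them (5.57, against 4.55). Macrophage and blood, endothelial, epithelial and glial markers averaged 5.58 or less on every MEF array. In such bulk samples, fewer cells of a type and less RNA per cell cannot be told apart.

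**Figure D1:**
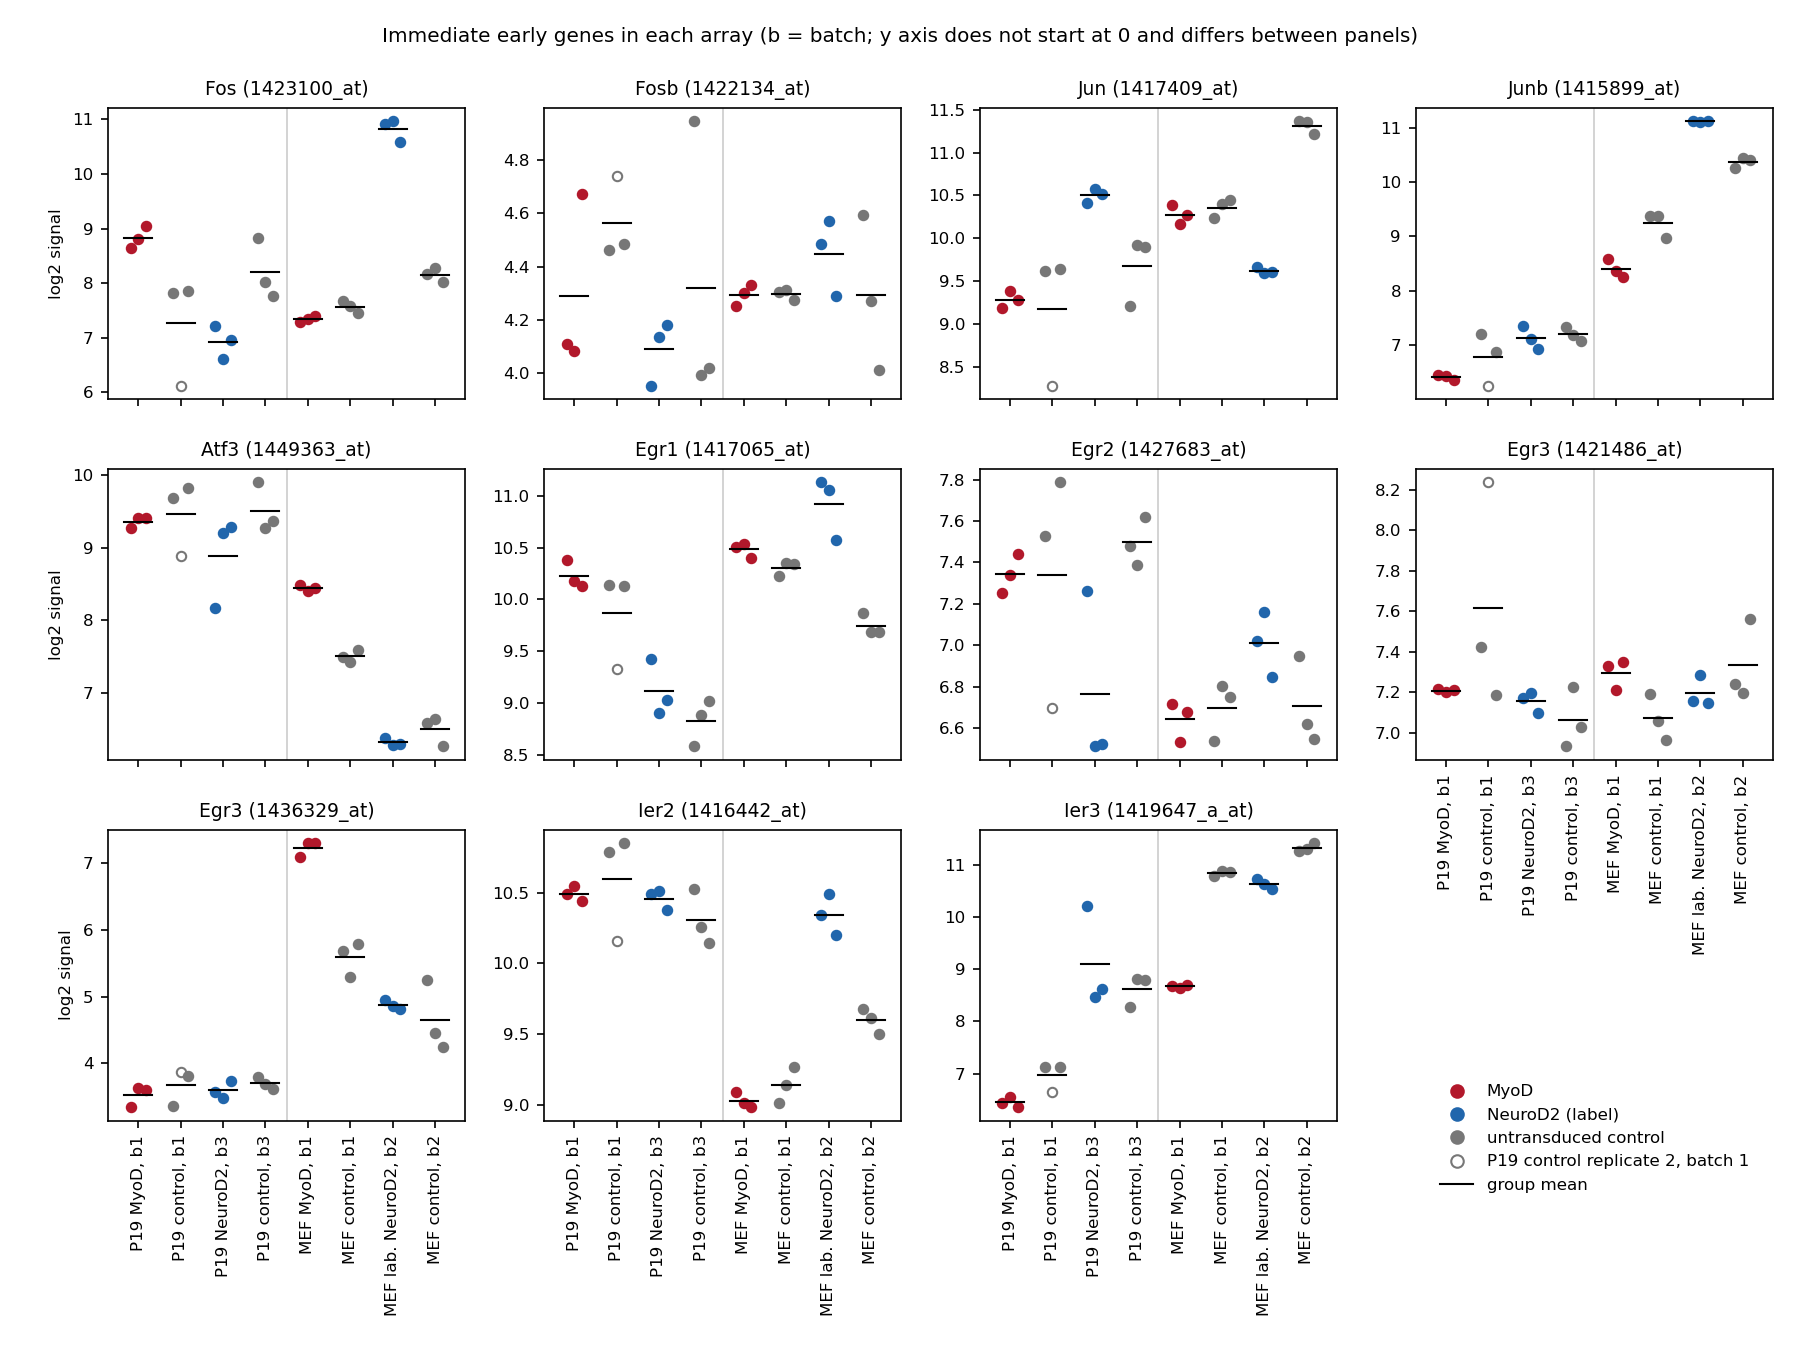
Log2 signal of 11 member probe sets on each array (points, 3 per group) with the group mean (line), P19 groups at the left and MEF groups at the right of each panel, transduced groups left of their controls. The vertical axes differ between panels and do not start at 0; Fos is highest in the MEFs labelled NeuroD2 (10.82), and the open circle is P19 control replicate 2 of batch 1.

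Fos, the zipper partner whose protein needs Jun to bind DNA, had the largest difference of all members in the MEFs labelled NeuroD2. It read 10.91, 10.97 and 10.58 on their arrays, against 8.17, 8.28 and 8.01 in the MEF controls of batch 2. All 3 transduced arrays exceeded all controls of the series, and the groups did not overlap. The difference of 2.66 ± 0.33 (SE, n = 3 per group) is 6.34-fold, with adjusted p = 4.95e-06. Set against the MEF controls of batch 1, the same arrays were higher by 3.25 (adjusted p = 2.96e-07).

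Fos also rose in P19 cells with MyoD. It read 8.65, 8.81 and 9.05 with MyoD, against 7.81, 6.12 and 7.85 in the P19 controls of batch 1. The groups did not overlap, and the low control is the outlying control. The difference was 1.58 ± 0.33 (adjusted p = 0.0120), and 1.00 without that array (adjusted p = 0.0114). The call ended when MyoD replicate 3 was left out (1.47, adjusted p = 0.0797). It also ended against the P19 controls of batch 3 (0.63, adjusted p = 0.315), where control replicate 1 reached 8.83 and overlapped the MyoD arrays.

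Fos fell in P19 cells with NeuroD2. The arrays read 7.21, 6.61 and 6.95 with NeuroD2, against 8.83, 8.01 and 7.76 in the P19 controls of batch 3. All NeuroD2 arrays were below all controls of their batch. The difference was -1.28 ± 0.33 (adjusted p = 0.0190), with adjusted p = 5.85e-05 when the outlying control of batch 1 was left out. The call was lost without control replicate 1 (-0.96, adjusted p = 0.122), NeuroD2 replicate 2 (-1.12, adjusted p = 0.113) or NeuroD2 replicate 3 (-1.29, adjusted p = 0.0583). Against the P19 controls of batch 1 the difference was -0.34 (adjusted p = 0.442), and -0.91 without the outlying control (adjusted p = 0.00364).

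Fos read 7.28, 7.34 and 7.39 in MEFs with MyoD, against 7.67, 7.59 and 7.44 in the controls of batch 1. The groups did not overlap, but the difference of -0.23 did not pass (adjusted p = 0.811). Fosb, a close relative of Fos with a strongly activity-dependent gene, stayed between 3.95 and 4.95 on every array, below the table median of 5.81, and was not called in any of these 4 comparisons. Its differences lay between -0.27 and 0.16.

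Jun, the partner that can bind DNA alone or with Fos, moved opposite to Fos under the NeuroD2 label in both cell types. Its stronger probe set, 1417409_at, read 9.66, 9.59 and 9.60 in the MEFs labelled NeuroD2, against 11.37, 11.36 and 11.22 in their controls. Every labelled array was below every control. The difference was -1.70 ± 0.24 (adjusted p = 4.05e-05), and the other probe set, 1448694_at, gave -1.83 ± 0.31 (adjusted p = 0.000318). Against the MEF controls of batch 1 the falls were -0.74 (adjusted p = 0.0497) and -1.63 (adjusted p = 0.00084), with 1417409_at itself 0.96 higher in the controls of batch 2 than in those of batch 1.

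Jun rose in P19 cells with NeuroD2. It read 10.41, 10.57 and 10.52 on 1417409_at with NeuroD2, against 9.20, 9.92 and 9.90 in the controls of batch 3. The groups did not overlap, and control replicate 1 lay well below the other controls. The differences were 0.83 ± 0.24 (adjusted p = 0.0492) and 1.10 ± 0.31 on 1448694_at (adjusted p = 0.0396). Both passed more clearly without the outlying control of batch 1 (adjusted p = 9.38e-05 and 7.07e-05). Both fell short when control replicate 1 was left out (0.59 and 0.78, adjusted p = 0.259 and 0.226). Leaving out any of the other 5 arrays of this comparison also ended the call of 1417409_at, with differences between 0.79 and 0.95. For 1448694_at every one of these but control replicate 2 did so, with differences between 1.03 and 1.22.

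MyoD left Jun without a call in either cell type. On 1417409_at, P19 cells with MyoD read 9.18, 9.39 and 9.29, against 9.62, 8.28 and 9.64 in their controls. MEFs with MyoD read 10.39, 10.17 and 10.27, against 10.23, 10.39 and 10.44. These groups overlapped, with differences of 0.11 (95% interval -0.40 to 0.62, adjusted p = 0.770) in P19 cells and -0.08 (-0.59 to 0.43, adjusted p = 0.939) in MEFs. Without the outlying control the P19 difference was -0.34 (adjusted p = 0.328), and all MyoD arrays were then below the controls.

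Junb, the Jun relative often found to restrain Jun, was far stronger in MEFs than in P19 cells and changed in both MEF comparisons, in opposite directions. It read 11.12, 11.11 and 11.12 in the MEFs labelled NeuroD2, against 10.26, 10.45 and 10.40 in their controls. All labelled arrays were higher, by 0.74 ± 0.17 (adjusted p = 0.00618), and the difference against the MEF controls of batch 1 was 1.87 (adjusted p = 1.02e-07). In MEFs with MyoD it read 8.58, 8.36 and 8.26, against 9.38, 9.37 and 8.97 in the controls of batch 1. All MyoD arrays were lower, by -0.84 ± 0.17 (adjusted p = 0.000993), and by -1.97 against the controls of batch 2 (adjusted p = 1.76e-08).

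In P19 cells Junb stayed low. It read 6.46, 6.42 and 6.36 with MyoD, against 7.21, 6.25 and 6.86 in the controls, a difference of -0.36 that did not pass (adjusted p = 0.181). The lowest control is again the outlying control. Without it the groups no longer overlapped and Junb fell, by -0.62 ± 0.14 (adjusted p = 0.0129). Against the P19 controls of batch 3 the difference was -0.79 (adjusted p = 0.00593). With NeuroD2 Junb read 7.36, 7.12 and 6.94, against 7.33, 7.19 and 7.08 in the controls of batch 3. These groups overlapped, with a difference of -0.06 (95% interval -0.43 to 0.30, adjusted p = 0.968).

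Atf3, a zipper repressor and activator that cells switch on under stress, rose in MEFs with MyoD. It read 8.49, 8.40 and 8.44 there, against 7.49, 7.42 and 7.59 in the controls of batch 1. The groups lay well apart, and the difference was 0.94 ± 0.25 (adjusted p = 0.00747). It was 1.95 against the MEF controls of batch 2 (adjusted p = 2.77e-06). The MEFs labelled NeuroD2 read 6.38, 6.28 and 6.29, against 6.58, 6.65 and 6.26 in their controls. These overlapped and differed by -0.18 (adjusted p = 0.860). Against the MEF controls of batch 1 the same arrays were lower by -1.19 (adjusted p = 0.00166), which is close to the gap between the controls themselves.

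In P19 cells Atf3 was high in every group. With NeuroD2 it read 8.16, 9.21 and 9.29, against 9.91, 9.27 and 9.36 in the controls. NeuroD2 replicate 1 was far below the other arrays, and the groups overlapped. The difference of -0.63 did not pass with all arrays (adjusted p = 0.181) and passed without the outlying control of batch 1 (adjusted p = 0.0385). With MyoD it read 9.27, 9.41 and 9.40, against 9.68, 8.88 and 9.82, a difference of -0.10 (adjusted p = 0.792).

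Egr1, a zinc-finger factor induced through serum response factor, rose in the MEFs labelled NeuroD2. It read 11.14, 11.06 and 10.58 in them, against 9.87, 9.69 and 9.68 in the controls of batch 2. The groups did not overlap, and the difference was 1.18 ± 0.19 (adjusted p = 0.00016). It was smaller against the MEF controls of batch 1, at 0.62 (adjusted p = 0.0332). MEFs with MyoD read 10.51, 10.54 and 10.40, against 10.22, 10.36 and 10.34, a difference of 0.18 that did not pass (adjusted p = 0.710), although the groups did not overlap. Egr1 was not called in P19 cells within either batch. P19 cells with MyoD read 10.38, 10.18 and 10.13, against 10.14, 9.33 and 10.13 (adjusted p = 0.206). P19 cells with NeuroD2 read 9.43, 8.90 and 9.02, against 8.58, 8.88 and 9.02 (adjusted p = 0.578). Its P19 results depended on the controls: against the other batch MyoD gave 1.40 (adjusted p = 5.72e-05) and NeuroD2 gave -0.75 (adjusted p = 0.00798).

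Egr2, a factor of hindbrain and Schwann cells, fell in P19 cells with NeuroD2 on its stronger probe set, 1427683_at. It read 7.26, 6.51 and 6.52 there, against 7.48, 7.39 and 7.62 in the controls. NeuroD2 replicate 1 lay close to the controls, and the groups did not overlap. The difference of -0.73 ± 0.22 passed narrowly (adjusted p = 0.0497), and more clearly without the outlying control of batch 1 (adjusted p = 0.00202). Leaving out 1 array of this comparison ended the call in 5 of 6 cases, with differences between -0.60 and -0.78 and the exception of NeuroD2 replicate 1. The other probe set, 1427682_a_at, gave -0.58 (adjusted p = 0.413), and passed without the array of batch 1 (adjusted p = 0.0110). In the other 3 comparisons neither probe set was called with all arrays. In the MEFs labelled NeuroD2, 1427682_a_at gave 0.47 (adjusted p = 0.533) and passed without that array (adjusted p = 0.0325).

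The probe sets of Egr3, a factor of muscle spindles and activated neurons, disagreed. On 1436329_at it rose in MEFs with MyoD, reading 7.10, 7.30 and 7.30 against 5.69, 5.30 and 5.79 in the controls of batch 1. All MyoD arrays were higher by a wide margin, with a difference of 1.64 ± 0.19 (adjusted p = 1.41e-06) and 2.59 against the controls of batch 2 (adjusted p = 1.47e-09). On 1421486_at, which has the higher mean over the series, the same comparison gave 0.23 ± 0.18 (adjusted p = 0.521). That probe set lay between 6.93 and 7.56 on 23 arrays and at 8.24 on the outlying control, and no factor changed it with all arrays. In P19 cells with MyoD it gave -0.41 (adjusted p = 0.158), and -0.62 without P19 control replicate 3 of batch 1 (adjusted p = 0.0199). Without that replicate 16275 of all probe sets were called, against 938 with all arrays. On 1436329_at the 12 P19 arrays stayed between 3.34 and 3.87, and no array outside the MEFs with MyoD exceeded the table median of 5.81. The MEFs labelled NeuroD2 read 4.96, 4.86 and 4.81, against 5.24, 4.45 and 4.24 in their controls. These overlapped, with a difference of 0.23 (adjusted p = 0.687). Without control replicate 1 the difference was 0.53 (adjusted p = 0.0469), and against the MEF controls of batch 1 it was -0.72 (adjusted p = 0.0147).

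Ier3, which encodes a small regulator of survival and ERK signalling rather than a DNA-binding factor, fell most of all members in MEFs with MyoD. It read 8.69, 8.64 and 8.70 there, against 10.79, 10.90 and 10.87 in the controls of batch 1. The 2 groups were each tight and lay far apart. The difference of -2.18 ± 0.28 is a 4.52-fold lower signal (adjusted p = 5.36e-06), and it was -2.66 against the controls of batch 2 (adjusted p = 2.86e-07). In the MEFs labelled NeuroD2, Ier3 read 10.74, 10.65 and 10.54, against 11.28, 11.31 and 11.43 in their controls. All labelled arrays were lower, by -0.70 ± 0.28, which did not pass (adjusted p = 0.165, and 0.0753 without the outlying control).

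In P19 cells Ier3 read 6.43, 6.56 and 6.35 with MyoD, against 7.13, 6.65 and 7.12 in the controls. All MyoD arrays were lower, and the difference of -0.52 did not pass (adjusted p = 0.217). P19 cells with NeuroD2 read 10.21, 8.47 and 8.63, against 8.28, 8.82 and 8.80, with NeuroD2 replicate 1 far above the rest (0.47, adjusted p = 0.510). Against the controls of the other batch these became -2.19 for MyoD (adjusted p = 3.51e-05) and 2.14 for NeuroD2 (adjusted p = 1.8e-05), in opposite directions.

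Ier2, a nuclear protein whose own targets are less well known, rose in the MEFs labelled NeuroD2. It read 10.35, 10.49 and 10.20, against 9.68, 9.62 and 9.50 in the controls of batch 2. The groups did not overlap, with a difference of 0.75 ± 0.14 (adjusted p = 0.000994), and of 1.21 against the controls of batch 1 (adjusted p = 2.93e-06). MEFs with MyoD read 9.09, 9.01 and 8.98, against 9.01, 9.14 and 9.26 (-0.11, adjusted p = 0.778). P19 cells had Ier2 between 10.15 and 10.85 on all 12 arrays, and neither factor gave a call there.

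**Figure D2:**
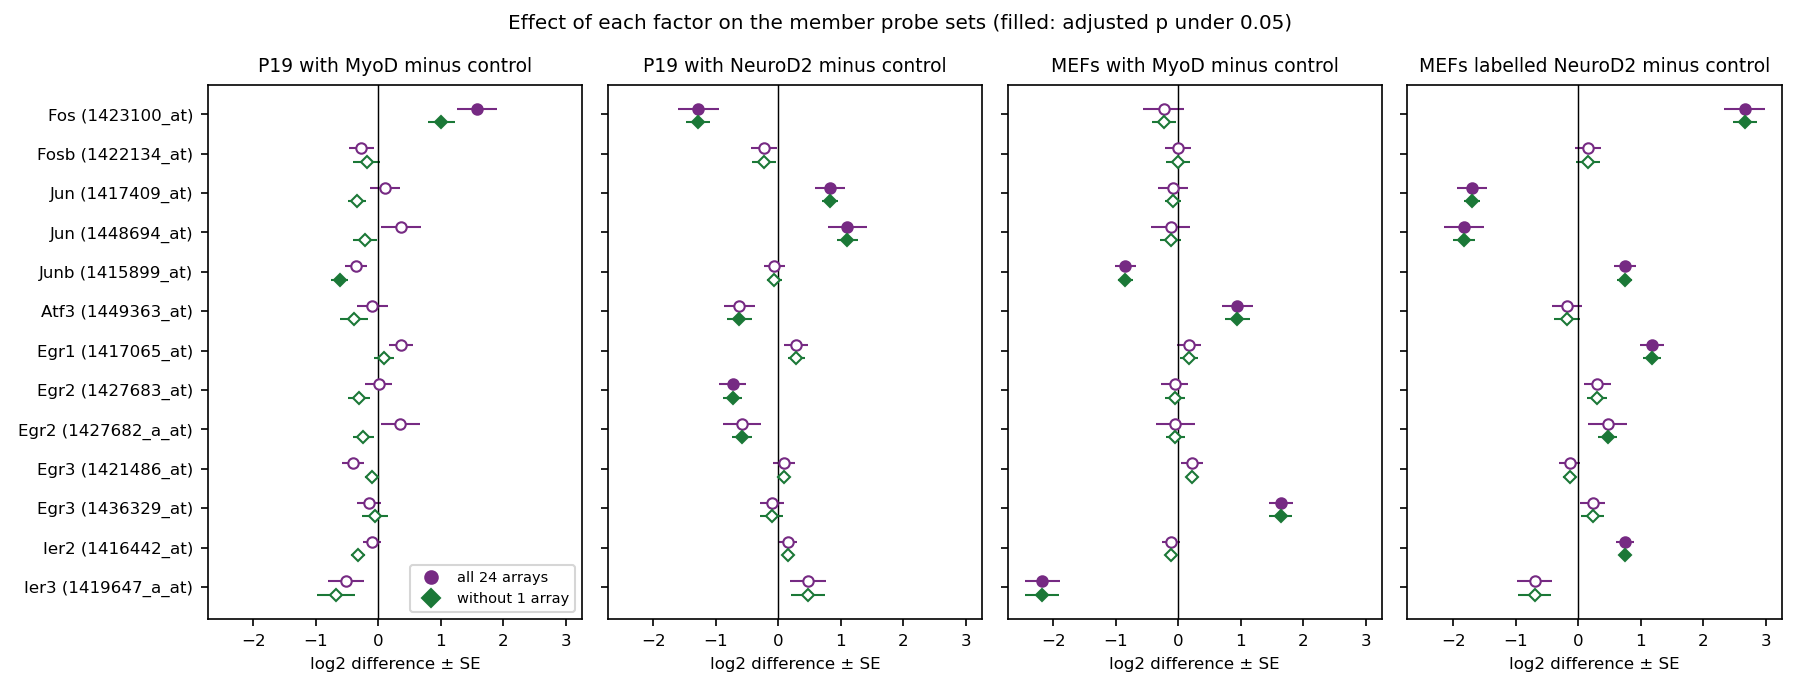
Log2 difference from the controls of the same batch for each member probe set, with its standard error (bars), in 4 comparisons. Circles use all 24 arrays and diamonds leave out P19 control replicate 2 of batch 1; filled symbols have an adjusted p under 0.05, as for Fos in 3 of the 4 panels.

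The effect of each factor was set against its effect in the other cell type. For MyoD, 4 of 13 member probe sets differed between MEFs and P19 cells, where 16.4% of all probe sets did. The effect on Fos was lower in MEFs by -1.81 ± 0.46 (adjusted p = 0.00888) and that on Egr3 (1436329_at) higher by 1.80 ± 0.27 (adjusted p = 7.14e-05). The size of the Fos value depends on the outlying control. The P19 control mean of Fos in batch 1 was 7.26 with that array and 7.83 without it. For the NeuroD2 label, 6 of 13 differed, against 8% of all. The effect on Fos was higher in MEFs by 3.94 ± 0.46 (adjusted p = 4.07e-06). For Jun the differences were -2.52 and -2.93 on its 2 probe sets (adjusted p = 3.11e-05 and 0.000106). The NeuroD2 groups of the 2 cell types belong to different batches, so cell type and batch cannot be told apart in that comparison. Without the outlying control, 4 and 9 of 13 differed, against 23.7% and 18.6% of all.

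Untransduced cells already differed in most members. In batch 1, MEF controls against P19 controls gave 9 of 13 member probe sets called, against 42.8% of all. Ier3 averaged 10.85 ± 0.0568 in MEFs and 6.97 ± 0.276 in P19 cells (SD, n = 3 each), a difference of 3.88 (adjusted p = 4.64e-10). Junb was higher in MEFs by 2.47 (adjusted p = 2.58e-10), Egr3 by 1.91 on 1436329_at (adjusted p = 6.57e-08) and Jun by 1.18 and 1.79 (adjusted p = 0.000479 and 8.38e-05). Without the outlying control the Jun differences were 0.73 and 1.21. MEFs thus had more signal for Jun, Junb and Ier3. Atf3 was lower in MEFs by -1.96 (adjusted p = 1.29e-06) and Ier2 by -1.46 (adjusted p = 3.96e-08). Egr2 was lower by -0.64 on 1427683_at (adjusted p = 0.0218), with overlapping groups, a call that ended without control replicate 1 of the MEFs (-0.56, adjusted p = 0.0838), or P19 control replicate 1 (-0.54, adjusted p = 0.0675) or 3 (-0.41, adjusted p = 0.116). Egr3 was lower by -0.55 on 1421486_at (adjusted p = 0.0160), and by -0.24 without the outlying control (adjusted p = 0.0895). That call also ended without MEF control replicate 3 (-0.49, adjusted p = 0.0615). Fos, Fosb and Egr1 were not called (0.31, -0.26 and 0.44), but Egr1 passed without P19 control replicate 1 (0.58, adjusted p = 0.0266) or 3 (0.57, adjusted p = 0.0263). Without the outlying control 9 of 13 were again called, against 45.6% of all, with Egr2 at -0.96 on 1427683_at (adjusted p = 7.76e-05) and -0.83 on 1427682_a_at (adjusted p = 0.00034).

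Controls of 1 cell type also differed between batches. P19 controls of batch 3 against batch 1 gave 3 of 13 calls, against 11.9% of all. Ier3 read 8.28, 8.82 and 8.80 in batch 3, against 7.13, 6.65 and 7.12 in batch 1, a difference of 1.67 (adjusted p = 0.000864). Egr1 was lower in batch 3 by -1.04 (adjusted p = 0.0016). These groups did not overlap, and each difference is larger than that of either factor for the same gene in P19 cells. The third call, Egr3 on 1421486_at (-0.56, adjusted p = 0.0448), ended without the outlying control (-0.24, adjusted p = 0.165), and without any 1 of the 3 batch 3 controls (-0.49 to -0.64). Without that array 3 of 13 were called, against 12.9% of all, and Ier2 was among them at -0.51 (adjusted p = 0.00276). Without P19 control replicate 1 of batch 1, Fos (1.22, adjusted p = 0.0169), Jun (0.72 on 1417409_at, adjusted p = 0.0405) and Junb (0.64, adjusted p = 0.0113) were called too. Without replicate 3 the added calls were Fos (1.24, adjusted p = 0.0116), Jun (0.73 on 1417409_at, adjusted p = 0.0316) and Egr2 (0.80 on 1427682_a_at, adjusted p = 0.0413). Over all 45037 probe sets, 13994 were called without replicate 1 and 16491 without replicate 3, against 5370 with all arrays.

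MEF controls of batch 2 against batch 1 gave 4 of 13 calls, against 3.4% of all. Junb was higher in batch 2 by 1.13 (adjusted p = 0.000508) and Jun by 0.96 on 1417409_at (adjusted p = 0.0318). Egr3 was lower by -0.95 on 1436329_at (adjusted p = 0.00706) and Atf3 by -1.01 (adjusted p = 0.0237). These gaps are as large as some differences between a factor and its controls. Each factor was read against its own batch by design, not because of these gaps. Without the outlying control 7 of 13 were called, against 15.2% of all, with Fos at 0.59 (adjusted p = 0.0446), Egr1 at -0.56 (adjusted p = 0.00962) and Ier2 at 0.46 (adjusted p = 0.00226) added. The Jun call ended without any 1 of the 6 arrays of this comparison (0.90 to 1.00). The Atf3 call ended without 5 of them (-0.89 to -1.05), MEF control replicate 2 of batch 2 excepted. The Egr3 call ended without MEF control replicate 3 of batch 1 (-0.85, adjusted p = 0.0501) or of batch 2 (-0.74, adjusted p = 0.0607).

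**Figure D3:**
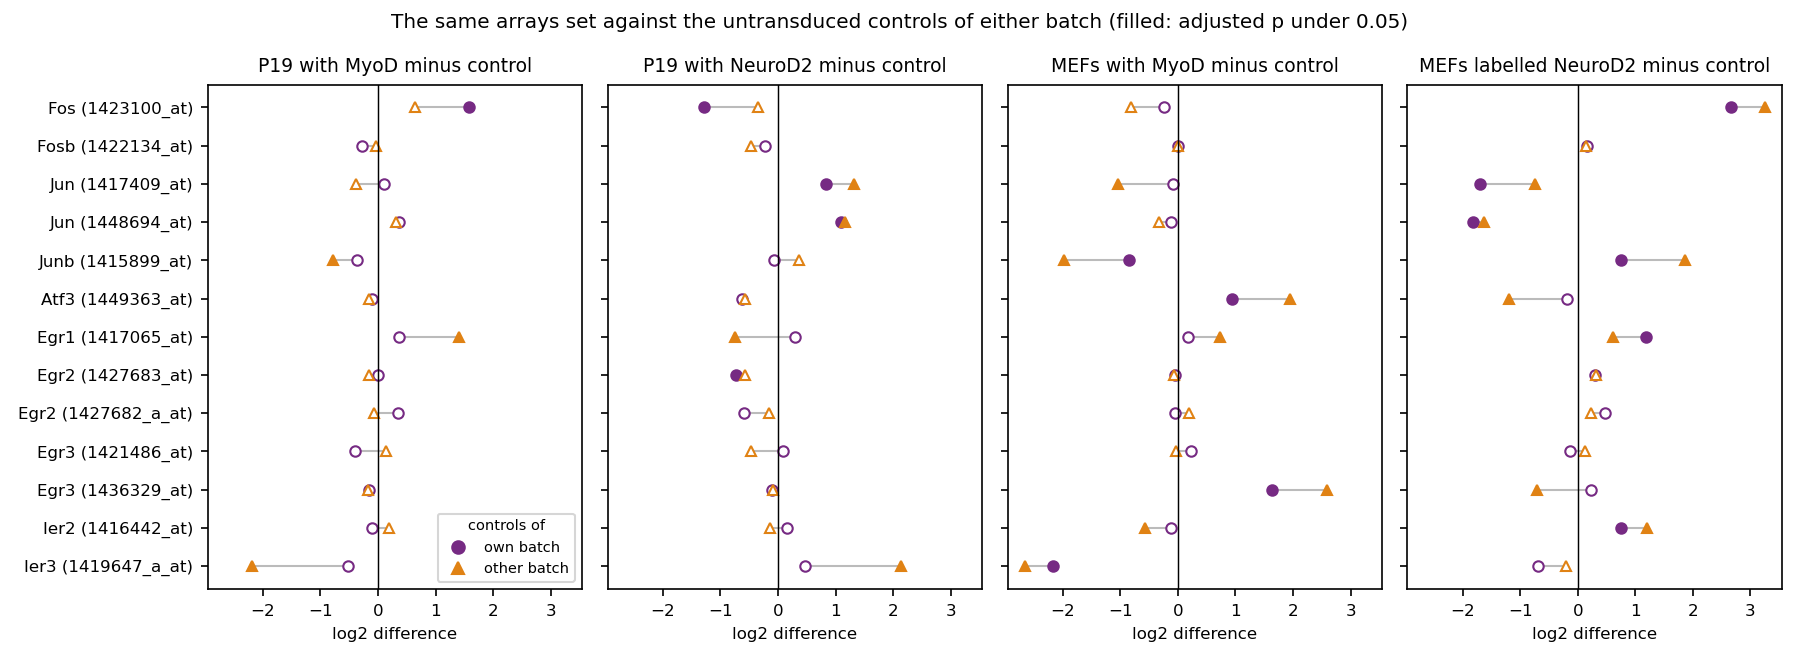
Log2 difference of the same transduced arrays from the untransduced controls of their own batch (circles) and of the other batch (triangles), joined by a line, for each member probe set. Filled symbols have an adjusted p under 0.05; Fos in the MEFs labelled NeuroD2 is called against both (2.66 and 3.25), while Ier3 in P19 cells is called against the other batch only (-2.19 and 2.14).

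Over the 8 groups, Ier3 had the widest range of group means (4.89), followed by Junb (4.70), Fos (3.90), Atf3 (3.20), Jun (2.14), Egr1 (2.10) and Ier2 (1.57). Egr2, Egr3 and Fosb spanned 0.85, 0.56 and 0.47 on their leading probe sets. Fos was highest in the MEFs labelled NeuroD2 at 10.82, and P19 cells with MyoD came next at 8.84, overlapping the P19 controls of batch 3 at 8.20. These in turn overlapped the MEF controls of batch 2 at 8.16. The MEF controls of batch 1 at 7.57 and MEFs with MyoD at 7.34 were separate from their neighbours above. The lowest means, 7.26 in P19 controls of batch 1 and 6.92 in P19 cells with NeuroD2, overlapped each other, and the first also overlapped MEFs with MyoD. Junb ordered the 4 MEF groups without overlap, at 11.11 in the MEFs labelled NeuroD2, 10.37 and 9.24 in the controls of batches 2 and 1, and 8.40 in MEFs with MyoD. Every P19 group lay below them, between 6.41 and 7.20, each overlapping the next. Jun on 1417409_at was highest in the MEF controls of batch 2 at 11.31. P19 cells with NeuroD2 at 10.50, MEF controls of batch 1 at 10.36 and MEFs with MyoD at 10.28 followed and overlapped. P19 controls of batch 3 at 9.67 overlapped the MEFs labelled NeuroD2 at 9.62, and P19 cells with MyoD at 9.29 overlapped the P19 controls of batch 1 at 9.18.

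Atf3 ran the other way from Junb, with all P19 groups between 8.89 and 9.51 and overlapping in turn, then MEFs with MyoD at 8.45, MEF controls of batch 1 at 7.50, those of batch 2 at 6.50 and the MEFs labelled NeuroD2 at 6.32. P19 cells with NeuroD2 overlapped MEFs with MyoD, and the 2 lowest groups overlapped each other. Ier3 had its 3 highest means in MEFs: controls of batch 2 at 11.34, of batch 1 at 10.85 and the labelled NeuroD2 group at 10.64, none overlapping the next. MEFs with MyoD at 8.68 overlapped both P19 groups of batch 3, at 9.10 with NeuroD2 and 8.63 in controls. P19 controls of batch 1 at 6.97 and P19 cells with MyoD at 6.45 were lowest and separate. Egr1 was highest in the MEFs labelled NeuroD2 at 10.93, then MEFs with MyoD at 10.48, and lowest in the P19 groups of batch 3, at 9.12 with NeuroD2 and 8.83 in controls, which overlapped. Ier2 set the MEFs labelled NeuroD2 at 10.35 among the P19 groups, which lay between 10.31 and 10.60. The other MEF groups stayed between 9.03 and 9.60.

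Genes with the most similar profile were found by the root mean square difference between group means, each centred on its own mean, over 8 groups and 16320 genes. For Fos the nearest were Ptger4 (0.523), Col14a1 (0.550) and Sdc1 (0.558). Jun was nearest to Sybu (0.203), Rgma (0.281) and Gng8 (0.296), and Junb to Calhm2 (0.291), Crtap (0.353) and Gpr153 (0.367). For Atf3 the nearest were Ncaph (0.233), Kif4 (0.239) and Parpbp (0.262), the first 2 being genes of chromosome condensation and the mitotic spindle. Egr1 was nearest to Myl9 (0.243), Elac1 (0.266) and Lynx1 (0.271), Ier2 to Nrtn (0.204), Gfpt2 (0.222) and Rgl3 (0.223), and Ier3 to En1 (0.454), Magee1 (0.555) and Gpm6b (0.567). No member was among the 3 nearest genes of another. These distances describe 8 means from shared arrays and carry no test.

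Genes around these factors were read from 6 lists, 1 probe set per gene. In the MEFs labelled NeuroD2, 11.9% of all genes were called, 6.15% higher and 5.74% lower (25.3%, 13% and 12.3% without the outlying control). Of 11 ERK feedback regulators, 4 rose and 2 fell there (4 and 4 without the outlying control). Dusp6, the phosphatase that switches off ERK, fell (-2.63, adjusted p = 1.43e-09), and Dusp4, a related phosphatase, likewise (-1.77, adjusted p = 3.12e-07). Spry1, an inhibitor of receptor signalling, rose by 2.60 (adjusted p = 2.51e-09). The list therefore moved both ways. Of 28 other immediate early genes, 4 rose and 7 fell (6 and 9 without the array). Nr4a2, an orphan nuclear receptor, rose by 3.12 (adjusted p = 7.91e-11) and Tiparp, a target of the aryl hydrocarbon receptor, by 2.58 (adjusted p = 3.66e-09). Klf4, a zinc-finger factor, fell (-2.03, adjusted p = 8.13e-08). Rises of Fos, Junb, Egr1 and Ier2 thus stood beside falls of other genes of the same response.

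In that comparison 1 of 13 AP-1 and CREB-ATF relatives rose and 1 fell (2 and 1 without the outlying control). Fosl1, the Fos relative of growing fibroblasts, read 5.99 on average, against 7.87 in controls (-1.88, adjusted p = 2.21e-06), the opposite direction to Fos. Mafk, a small Maf protein, rose by 0.93 (adjusted p = 5.01e-05). Of 3 EGR partners and NAB corepressors, Nab2, which represses Egr1 activity, fell (-0.76, adjusted p = 0.0306). Of 6 genes of serum response factor and its partners 1 rose and 0 fell (2 and 1 without the outlying control), and Elk1 was higher by 0.38 (adjusted p = 0.0247). Of 12 integrated stress response genes, 1 rose and 3 fell (1 and 6 without the array). The pseudokinase Trib3 gave -1.52 and Ddit4 -1.01 (adjusted p = 0.0314 and 0.000496), and Vldlr rose by 1.25 (adjusted p = 0.00101).

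With MyoD in MEFs, 24.4% of all genes were called, 10.4% higher and 14% lower (39.3%, 17.4% and 21.9% without the outlying control). Of the 28 other immediate early genes 2 rose and 12 fell (6 and 15 without the outlying control), with a median of -0.46, against 0.00 over all genes. Cebpd and Cebpb, factors of the acute-phase response and fat cells, gave -1.66 and -1.24 (adjusted p = 0.000104 and 0.00773). Rhob, a small GTPase, rose by 1.12 (adjusted p = 0.000451). Srf, the serum response factor itself, rose by 1.17 (adjusted p = 1.26e-05), while Elk3, 1 of its partners, fell (-1.79, adjusted p = 0.0017). Of the 13 AP-1 relatives 1 rose and 2 fell (1 and 4 without the array): Mafk gave 0.40, Fosl1 -0.99 and Maff -0.74 (adjusted p = 0.0405, 0.0017 and 0.0216). Of the 11 ERK feedback regulators 2 rose and 1 fell (6 and 3 without the array), with Dusp2 at 1.19, Spry2 at 0.71 and Spred1 at -0.85 (adjusted p = 1.03e-06, 0.0437 and 0.0013). Of the 12 stress response genes 2 rose and 1 fell (3 and 2 without the array). Vldlr gave 1.76, Asns 0.62 and Ddit3 -1.05 (adjusted p = 9.11e-06, 0.0135 and 0.0498), so this list also moved both ways. None of the 3 EGR partners was called (1 fell without the array).

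P19 cells showed fewer calls. With NeuroD2, 7.82% of all genes were called, 4.92% higher and 2.89% lower (20.3%, 10.2% and 10.2% without the outlying control). Of the 28 other immediate early genes 2 rose and 6 fell (4 and 12 without the outlying control). Btg2, an antiproliferative gene of newborn neurons, rose by 1.64 (adjusted p = 9.08e-07), and Cebpb and Klf2 gave -1.31 and -1.16 (adjusted p = 0.0155 and 0.00066). The other 5 lists had 0 calls with all arrays, and 2 genes higher and 8 lower without the array. With MyoD, 2.51% of all genes were called, 1.88% higher and 0.627% lower (3.45%, 1.86% and 1.58% without the outlying control). Gadd45b, a stress-induced growth regulator, fell (-0.50, adjusted p = 0.0132), the 1 call among the 28 other immediate early genes, of which 0 rose and 7 fell without the array. Elk4, a partner of serum response factor, rose by 0.53 (adjusted p = 0.0363), and its call ended without the array (0.35, adjusted p = 0.0941). It was the 1 call in the other 5 lists, which without the outlying control had 0 genes higher and 3 lower.

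**Figure D4:**
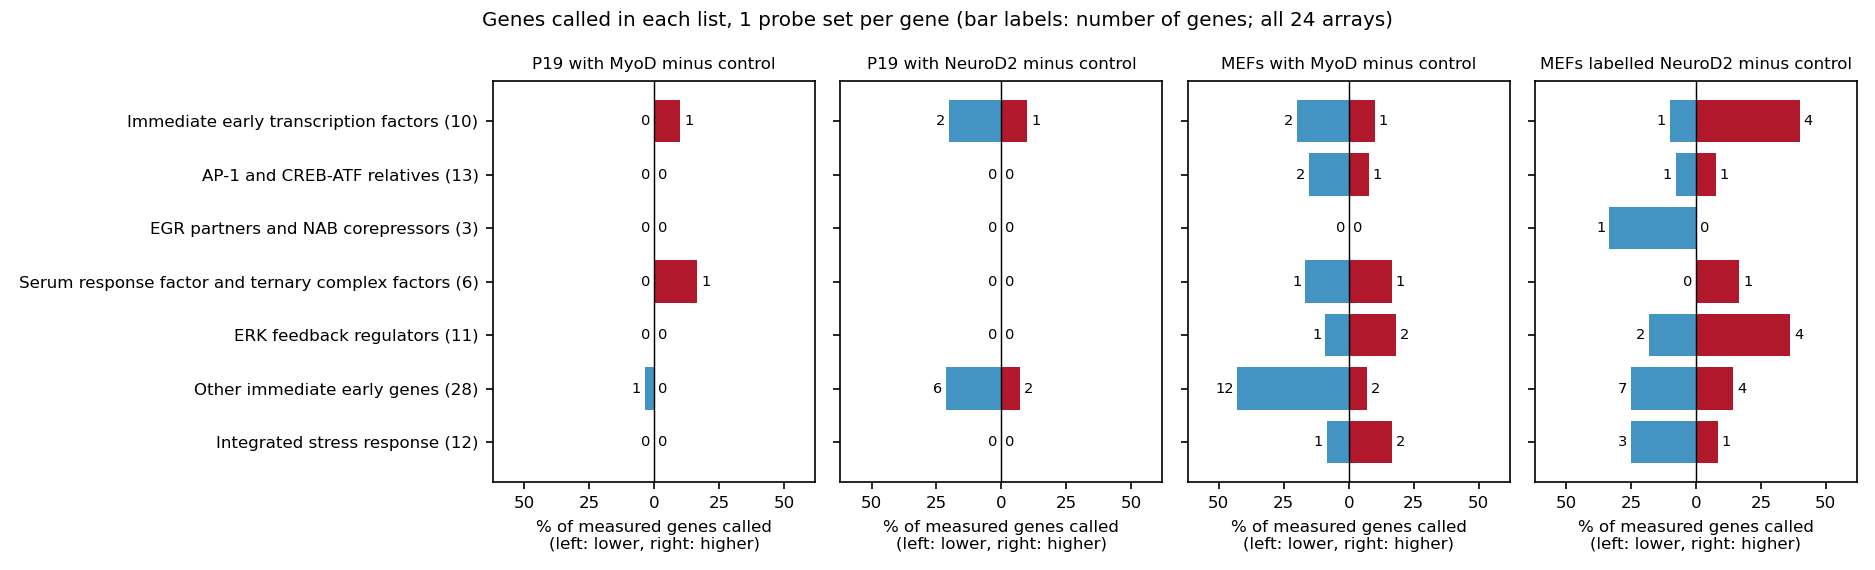
Share of the measured genes of each list that were called higher (right) or lower (left) than the controls of the same batch, with the number of genes at each bar and the number measured beside each list name. In MEFs with MyoD 12 of 28 other immediate early genes were lower, where 14% of all genes were. In the MEFs labelled NeuroD2 4 of the 10 members were higher, where 6.15% of all genes were. The shares over all genes are not drawn.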

How the data were processed

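RNA from 24 mouse cell samples was hybridised to Affymetrix arrays, and the series' value table holds log2 signals deposited by the authors, and the sources used here do not state their background correction or normalization. The submitters' processing notes name limma without a version. Depth has no meaning for arrays, and 3 arrays per group limit the precision. Groups were read from the labels of each sample. The label field on differentiation calls the MyoD samples neuronally differentiated, and the titles were followed.

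Of 45101 probe sets, 64 Affymetrix controls were left out and 45037 tested with no filter on signal. A gene symbol was unique for 34945, missing for 9160 and multiple for 932. Group means of all 24 arrays were fitted with limma 3.58.1 in R 4.3.3 (16 residual and 3.66 prior degrees of freedom). Tests were two-sided, with Benjamini-Hochberg adjustment over all probe sets and calls at an adjusted p under 0.05. The fit without P19 control replicate 2 of batch 1 had 15 residual and 5.11 prior degrees of freedom. Lists were counted on 1 leading probe set per gene, that of highest mean over the series, for 18193 genes. Every member was named, and from each list in each comparison up to 3 called genes with the largest differences were named, together with the 3 genes nearest in profile to members whose leading probe set spanned at least 1. The lists were AP-1 and CREB-ATF relatives, EGR partners, serum response factors, ERK feedback regulators, other immediate early genes and the integrated stress response. Members and lists were chosen with earlier results of these data known. The fit was tested on simulated data. Alternatives were other normalizations, filters, fits, a replicate block, controls of the other batch and leaving out each array.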

Additional observations from a re-analysis of the deposited data

Results flagged for a closer look

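A group of values here is a factor's effect in MEFs minus its effect in P19 cells, and each was flagged because that difference passed in limma. For MyoD, the effect on Fos differed by -1.81 (adjusted p = 0.00888), on Egr3 (1436329_at) by 1.80 (adjusted p = 7.14e-05), on Atf3 by 1.04 (adjusted p = 0.0450) and on Ier3 by -1.66 (adjusted p = 0.00617). The Fos value uses a P19 control mean of 7.26, which is 7.83 without the outlying control. The Atf3 difference did not pass without any 1 of 11 of the 12 arrays it uses (0.86 to 1.09, the exception being P19 control replicate 2). The other 3 were each called when any 1 of the 12 arrays was left out.

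For the NeuroD2 label, the effect on Fos differed by 3.94 (adjusted p = 4.07e-06), and that on Jun by -2.52 on 1417409_at (adjusted p = 3.11e-05) and by -2.93 on 1448694_at (adjusted p = 0.000106). The differences for Junb (0.81, adjusted p = 0.0479), Egr1 (0.89, adjusted p = 0.0460) and Egr2 on 1427683_at (1.04, adjusted p = 0.0401) were narrow calls. Junb ended without any 1 of 11 arrays of the comparison (0.71 to 0.87), Egr1 without any 1 of 9 (0.78 to 0.95) and Egr2 without any 1 of 9 (0.91 to 1.09). Fos and Jun were called in every such case. Cell type and batch cannot be told apart in this comparison.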

How the results depend on the processing

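All values here are counts of the 13 member probe sets called unless a difference is named, and the cause of each change was not tested. The count for MyoD in P19 cells, 1, was 2 after a second quantile normalization, 0 when only the arrays compared were fitted, 6 with array weights, 3 against the controls of the other batch, and 0 to 2 when 1 array was left out. The count for MyoD in MEFs, 4, was 3 to 7 over the other settings, with 7 against the other batch, and 4 to 4 with 1 array left out. The count for NeuroD2 in P19 cells, 4, was 1 with each array shifted to the same median, 2 when only the arrays compared were fitted, 9 against the other batch with the outlying control left out (an alternative chosen after seeing the data), and 0 to 6 with 1 array left out. The count for the MEFs labelled NeuroD2, 6, was 5 to 9 over the other settings and 6 to 7 with 1 array left out. MEF against P19 controls, 9, gave 6 to 10 over the other settings and 8 to 9 with 1 array left out. P19 controls between batches, 3, gave 0 when only the arrays compared were fitted and 2 to 6 with 1 array left out. MEF controls between batches, 4, gave 7 when only the arrays compared were fitted, 8 with array weights and 1 to 7 with 1 array left out. Of the differences between cell types, that for MyoD, 4, gave 3 to 5 over the other settings and 3 to 5 with 1 array left out. That for NeuroD2, 6, gave 3 to 8 over the other settings, with 3 for shifted medians, and 3 to 9 with 1 array left out.

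Whether replicate numbers pair the arrays is not settled. Same-numbered deviations correlated above 0.1 in 2 of 3 pairs in both P19 factor comparisons and in 0 of 3 pairs in the other 3 comparisons examined. In each comparison 3 to 5 of 6 arrays correlated best with their own number, and it was 5 for NeuroD2 in P19 cells. The main fit used no pairing. With a replicate block the count was 1 for NeuroD2 in P19 cells and 0 for MEF controls between batches, against 4 in each as reported. Over all probe sets that block gave 2617 and 308 calls, against 2756 and 1532 as reported. Of 2005 alternative values for single probe sets, 95 had the opposite sign to the reported value, 90 of them called under neither setting. The other 5 were called under the alternative. Jun (1417409_at) with MyoD in P19 cells was -0.31 with array weights. Against the other batch's controls NeuroD2 in P19 cells gave -0.75 for Egr1, and without the outlying control -1.02 for Egr1 and -0.36 for Ier2. Egr3 (1436329_at) in the MEFs labelled NeuroD2 was -0.72 against the other batch.

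Over all probe sets, 938 were called for MyoD in P19 cells, but 52 when only the arrays compared were fitted, 4118 with array weights, 3779 against the other batch, and 12560 or 16275 without P19 control replicate 1 or 3. Array weights gave 19391 for MyoD in MEFs, 9027 for NeuroD2 in P19 cells and 13604 for the MEFs labelled NeuroD2, against 8889, 2756 and 4346 as reported. For MEF controls between batches they gave 11678, against 1532 as reported. Against the other batch's controls 10937 were called for MyoD in MEFs. For NeuroD2 in P19 cells that setting gave 11103, and 10893 with the outlying control left out. Only the arrays compared gave 18085 for MyoD in MEFs and 9121 for the MEFs labelled NeuroD2. They gave 2094 for NeuroD2 in P19 cells, 0 for P19 controls between batches and 6053 for MEF controls between batches. Shifted medians gave 2494 for NeuroD2 in P19 cells and 3249 for its difference between cell types. With 1 array left out the calls ran from 1841 to 7255 for NeuroD2 in P19 cells. For MEF controls between batches they ran from 839 to 6847. Other background corrections and a slide block were not run, since the deposited values allow neither. Members whose signal lies below the table median, as Fosb, limit what a change could show.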
